A study of Danio rerio with 24 samples.

Results

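The livers of 6 untrained female zebrafish were compared, 3 from the overfed non-trained group (OF-control) and 3 from the normally fed non-trained group (NF-control). They were chosen from the 24 sequenced fish by their labels for sex, training and feeding. All fish were adults of the ABTL laboratory strain, for which the study sets a minimum age of 6 months. The feeding phase lasted 8 weeks. The daily ration of live shrimp was 0.75 mL per fish for NF and 9 mL for OF fish, and both received 2 spoons of the dry feed SDS 400 per tank each day. Neither group had training sessions in the swim tunnel. The study did measure the maximum speed of all groups in that tunnel, at the start, during and at the end of the 8 weeks. All fish were fasted overnight before the livers were taken. The same feeding contrast was read in 3 OF-training against 3 NF-training females, which had completed 20 swim sessions, and in 3 OF-control against 3 NF-control males. These contrasts share no fish with the untrained females. Fish were kept 6 to a tank and each group held 6 fish, so that feeding and tank cannot be told apart. Whether the fish of a group came from separate clutches is not stated, and p-values measure the spread between these fish.

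The liver stores glucose as glycogen after a meal and turns surplus sugar into fatty acids, while it breaks down glycogen, fat and amino acids during a fast. Its cholesterol synthesis is regulated by feedback: when sterols are plentiful in the membrane of the endoplasmic reticulum, the transcription factor SREBP2 is held there by INSIG proteins, and the enzymes of the pathway are transcribed less. In egg-laying females the liver also makes vitellogenin, the yolk precursor protein, under the control of estrogen.

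Whole liver was sequenced, and the values are estimated counts per gene. Total counts ranged from 19315642 to 21399321 over the 24 fish. Vitellogenin genes took 45.8% of the counts in NF-control female 1, 74.5% in female 2 and 72.4% in female 3, and 65.4%, 70.5% and 71.5% in OF-control females 4, 5 and 6. NF-control female 1 thus stood apart with the lowest share, and it had counts for the most genes: 14501 genes had at least 10 counts there, against 11629 to 12767 in the other 5 fish. The mean share was 64.2% ± 16 (SD, n = 3) with normal feeding and 69.1% ± 3.27 (SD, n = 3) with overfeeding, a difference of 4.9 percentage points within the spread of the NF-control fish (exact two-sided permutation test, p = 1; the smallest p that 20 arrangements allow is 0.1). Without NF-control female 1 the difference was -4.32 percentage points. No male exceeded 0.159%. Hepatocyte markers identified the tissue, with all 13 at 1 TPM (a transcript abundance scaled for length) or more in each of the 6 livers.

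**Figure D1:**
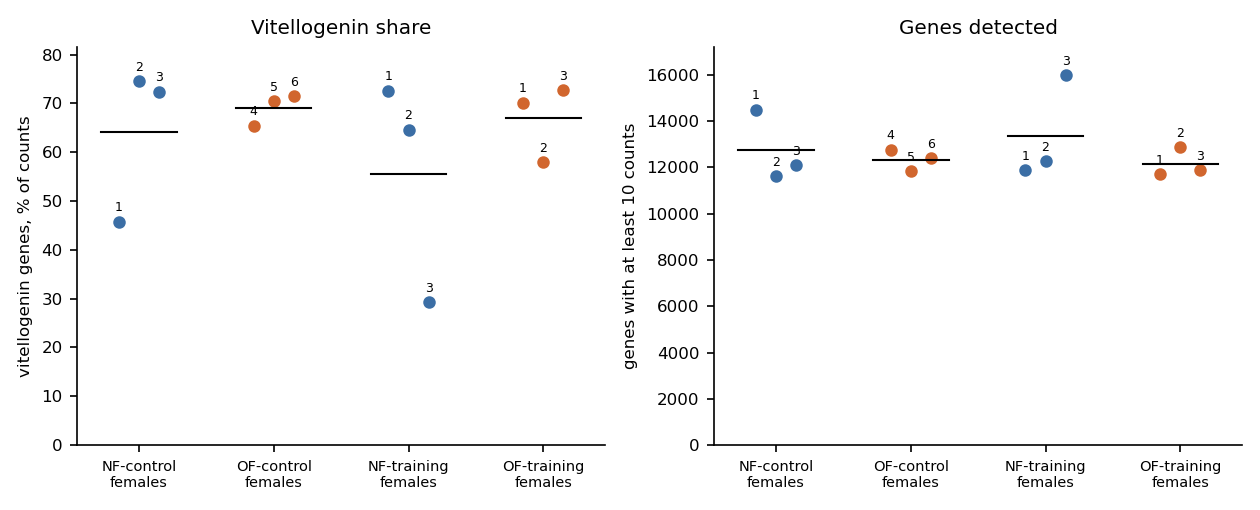
Vitellogenin share of the counts in percent (left) and the number of genes with at least 10 counts (right) in the 12 female livers, with the replicate number above each point and the group mean of 3 fish as a bar. NF-control female 1, with 45.8% vitellogenin and 14501 genes, and NF-training female 3, with 29.3% and 15980 genes, lie apart from the other females.

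It was found that no gene passed an adjusted p of 0.05 between OF-control and NF-control females (edgeR's quasi-likelihood test, Benjamini-Hochberg adjustment over 17411 genes), a share of 0%. The lowest adjusted p was 0.275 (edgeR), for the linker histone gene histh1l1. At an unadjusted p under 0.05 there were 831 genes, of which 343 (1.97% of those tested) were higher and 488 (2.8%) were lower with overfeeding. In 669 genes (3.84%) all 3 OF-control livers lay above all 3 NF-control livers, and in 816 (4.69%) they lay below. With the same model DESeq2 called 9 genes, 4 higher and 5 lower, and limma voom called 0 with 591 at an unadjusted p under 0.05. In trained females edgeR called no gene (0%), with 3.3% of the genes higher and 6.9% lower at an unadjusted p under 0.05. In untrained males it called 4 genes (0.023%), with 5.01% higher and 6.63% lower at the unadjusted threshold. The differences that follow are therefore measurements in 3 against 3 fish and passed no adjusted test in edgeR. Levels are normalized counts per 1000000 (CPM), scaled with TMM so that vitellogenin does not lower the other genes, and a log2 fold change is OF minus NF with its standard error (SE).

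Genes for linker histones were among the higher genes with the smallest p-values. These proteins bind DNA between nucleosomes and compact chromatin. For histh1l1 (ENSDARG00000035519), the NF-control females had 4.24, 4.16 and 3.16 CPM and the OF-control females 18.4, 53.6 and 27.3 CPM. All overfed livers were thus above all normally fed livers, with a mean 8.55-fold higher. The log2 fold change was 3.10 (SE 0.55, unadjusted p = 1.58e-05). H1-10 (ENSDARG00000054058), a replication-independent linker histone, had 8.98, 13.8 and 11.5 CPM against 35.9, 64.4 and 29.9 CPM. Its groups did not overlap either, and its log2 fold change was 1.93 (SE 0.42, unadjusted p = 0.000181, adjusted p = 0.786 in edgeR). In DESeq2 the adjusted p-values of histh1l1 and H1-10 were 2.36e-05 and 0.0142.

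Of 37 histone genes matched by symbol, 15 passed the filter on low counts, of which 9 were higher and 6 lower with overfeeding. Of the 15, 5 (33.3%, with 3.84% of all genes) did not overlap between the groups, all of them higher. Among them were h2ax1 (ENSDARG00000068995), a variant of histone H2A, with 10.6, 11.4 and 8.32 CPM against 16, 12.6 and 20.2 CPM, and hist2h2l (ENSDARG00000068996), with 9.39, 7.47 and 4.98 CPM against 14.2, 10.7 and 9.76 CPM. Their log2 fold changes were 0.69 (SE 0.41) and 0.66 (SE 0.43). The linker histone of the oocyte, h1m (ENSDARG00000102892), was low in both groups and overlapped, with 0.756 CPM on average with normal feeding and 0.586 CPM with overfeeding. Ovary and oocyte markers summed to 2.43 to 4.64 TPM in NF-control and 4.49 to 10.4 TPM in OF-control livers, with 13 of 30 markers at 0 in all 6 fish. The 4.64 TPM was in NF-control female 1, and TPM is not scaled for the lower vitellogenin share of that fish. The part of these markers in the linker histone difference was not tested. The close copies h1l1, histh1l2 and histh1l3 had too few counts to be tested. Reads shared between such copies are divided by the counting, so that the value of histh1l1 is uncertain to that extent. The list of histone genes was made after the values were seen.

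In the other fish the fold changes of the linker histones were smaller. In trained females the log2 fold changes were 1.56 for histh1l1 and 0.40 for H1-10, and in males they were 0.62 and -0.67. H1-10 lay between 11.3 and 17 CPM in the 3 NF-control males and between 5.6 and 10.8 CPM in the 3 OF-control males, so that the male groups did not overlap in the opposite direction. The difference between the female and the male effect was 2.60 for H1-10 and 2.48 for histh1l1 on the log2 scale (unadjusted p = 0.000245 and 0.00263). Neither interaction passed adjustment in edgeR (adjusted p = 0.694 and 0.78), where 0 genes (0%) were called and 5.51% of all genes had an unadjusted p under 0.05. DESeq2 gave an adjusted p of 0.0345 for the interaction of H1-10. Between untrained and trained females, edgeR again called no interaction (0%), with 4.46% of genes at the unadjusted threshold, and the unadjusted p was 0.045 for histh1l1 and 0.0156 for H1-10. The NF-training females varied widely, from 5.32 to 23.1 CPM for histh1l1 and from 12.5 to 35.3 CPM for H1-10.

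**Figure D2:**
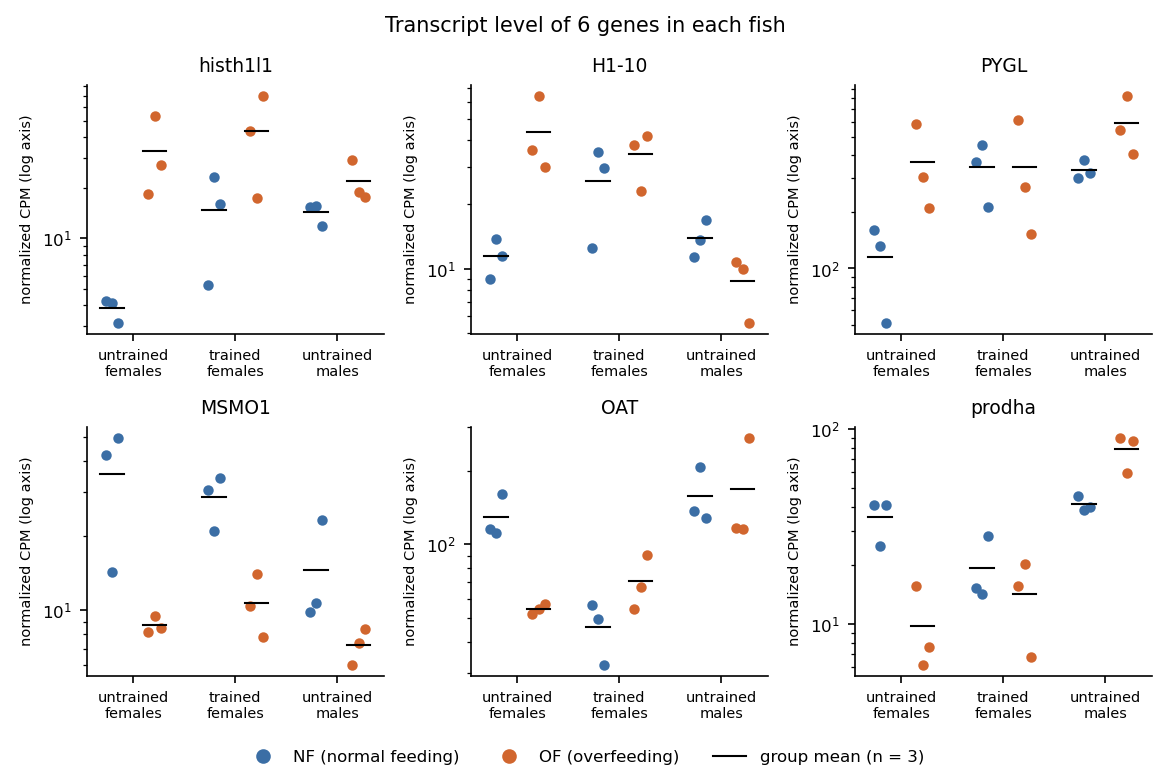
Normalized counts per 1000000 (CPM, log axes that differ between panels) of 6 genes in each fish of the untrained females, trained females and untrained males, blue for normal feeding and orange for overfeeding, with the group mean of 3 fish as a bar. In untrained females the groups do not overlap for any of the 6 genes, with histh1l1, H1-10 and PYGL higher and MSMO1, OAT and prodha lower in OF-control fish.

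A gene for the release of liver glucose stores was higher in overfed untrained females. PYGL (ENSDARG00000002197), the liver glycogen phosphorylase that releases glucose from glycogen, had 160, 132 and 51.6 CPM against 584, 307 and 210 CPM, with a log2 fold change of 1.68 (SE 0.48, unadjusted p = 0.00243). The groups did not overlap, and OF-control female 4 was highest. Over the 45 tested genes of glycolysis and gluconeogenesis, 15 were higher and 30 lower, and their median was -0.133 on the log2 scale. At an unadjusted p under 0.05, 3 were higher (6.67%, against 1.97% of all genes) and 2 lower (4.44%, against 2.8%). In trained females the log2 fold change of PYGL was 0.01 (-0.25 without NF-training female 3), and the interaction between untrained and trained females was 1.67 (unadjusted p = 0.0216, adjusted p = 1 in edgeR). In males the log2 fold change of PYGL was 0.82.

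Lipid handling was mixed. PLIN2 (ENSDARG00000042332), which coats lipid droplets, had 2.81, 5.12 and 2.77 CPM with normal feeding and 6.91, 16 and 6.54 CPM with overfeeding (log2 fold change 1.47, SE 0.54, unadjusted p = 0.0135). ACADVL (ENSDARG00000016687), the dehydrogenase that starts mitochondrial oxidation of very long acyl chains, had 40.1, 93.5 and 61.2 CPM against 151, 152 and 148 CPM, a log2 fold change of 1.21 (SE 0.39, unadjusted p = 0.00588). SLC25A20 (ENSDARG00000040401), which carries acylcarnitine into mitochondria, had 69.5, 90.1 and 83.2 CPM against 138, 160 and 132 CPM. For these 3 genes all overfed livers were above all normally fed ones. In males the log2 fold changes of PLIN2, ACADVL and SLC25A20 were 2.56, 1.01 and 0.68. In trained females they were -0.23, 0.62 and 0.29 (0.60, 0.28 and -0.10 without NF-training female 3). ACADVL alone of the 39 tested genes of fatty acid oxidation (2.56%, against 1.97% of all genes) was higher at an unadjusted p under 0.05, and none was lower. The median log2 fold change of that list was 0.0277 in untrained females, 0.14 in trained females (-0.0427 without NF-training female 3) and 0.589 in males. CEBPB (ENSDARG00000042725), a transcription factor of liver metabolism and the acute phase, had 27.8, 25.2 and 30.9 CPM against 41.1, 41.8 and 35.4 CPM.

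The genes of fatty acid synthesis were divided between higher and lower values. Fatty acid synthase (FASN, ENSDARG00000087657) had 409, 66.0 and 244 CPM in NF-control and 111, 51.6 and 41.3 CPM in OF-control livers. The groups overlapped, because NF-control female 2 lay below OF-control female 4, and the log2 fold change was -1.82 (SE 0.74, unadjusted p = 0.0239). ACACA (ENSDARG00000078512), acetyl-CoA carboxylase, had 608, 198 and 672 CPM against 438, 109 and 65.0 CPM, and the desaturase SCD (ENSDARG00000033662) had 112, 3.31 and 45.3 CPM against 16.7, 0.4 and 1.36 CPM. Within each group the same fish ranked high or low in FASN and DGAT2 (ENSDARG00000018846), an enzyme of triglyceride synthesis, with NF-control female 1 and OF-control female 4 highest. SREBF1 (ENSDARG00000067607), the transcription factor of lipid synthesis, had 33.0, 31.2 and 38.5 CPM against 23.4, 10.6 and 23.3 CPM, and its groups did not overlap (log2 fold change -0.84, SE 0.38, unadjusted p = 0.0384). Its log2 fold change was -1.09 in males and -0.09 in trained females (-0.14 without NF-training female 3). Of 35 tested genes of fatty acid and triglyceride synthesis, 17 were higher and 18 lower, with a median of -0.223. At an unadjusted p under 0.05, 1 was higher (2.86%, against 1.97% of all genes) and 2 lower (5.71%, against 2.8%). FADS6 (ENSDARG00000091503), of the fatty acid desaturase family, had 10.1, 33.2 and 23.4 CPM against 5.18, 4 and 5.43 CPM, a log2 fold change of -2.18 (SE 0.69).

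Of the 21 gene lists examined, that of cholesterol synthesis had the largest share of members lower at an unadjusted p under 0.05 in untrained females. Like the other lists, it was chosen with earlier results of these data known, so its counts are a description of these fish. Of 29 tested genes of cholesterol synthesis and uptake, 23 were lower and 6 higher with overfeeding, and 12 (41.4%, against 2.8% of all genes) were lower at an unadjusted p under 0.05, with none higher. In 11 of the 29 the groups did not overlap, all of them lower, against 4.69% of all genes. Their median was -0.905 on the log2 scale, and that of all genes was -0.0038. Without NF-control female 3, the fish with the highest level of most of these enzymes, 7 genes were lower at an unadjusted p under 0.05 and the median was -0.547. Leaving out each of the other 5 fish gave 9 to 13 genes, with 9 and a median of -0.638 without OF-control female 4. Of all 17411 genes, 488 were lower at that threshold with all fish and 411 without NF-control female 3. The number was 265 to 764 without each of the other 5 fish, and 764 was that without OF-control female 4.

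The early, shared steps of the pathway showed mostly small or variable differences. ACAT2 (ENSDARG00000007127), the thiolase that joins the first acetyl-CoA units, had 68.3, 19.5 and 89.1 CPM in NF-control and 23, 3.10 and 2.21 CPM in OF-control livers. Its log2 fold change was large, at -2.64 (SE 1.06), and the groups overlapped. HMGCS1 (ENSDARG00000103025), the synthase of the next step, had 19.4, 24.6 and 35.2 CPM against 10.4, 16.2 and 37.9 CPM, with a log2 fold change of -0.29 (SE 0.60). It did not differ beyond the spread between fish. MVD (ENSDARG00000099336), IDI1 (ENSDARG00000019976) and FDPS (ENSDARG00000040890), which build the isoprenoid units, had log2 fold changes of -1.09 (SE 0.69), -0.55 (SE 0.27) and -0.79 (SE 0.31). Squalene synthase (FDFT1, ENSDARG00000101062) was at -0.84 (SE 0.51). Of these genes, ACAT2 and FDPS passed the unadjusted threshold, and the others did not. For FDPS all overfed livers lay below all normally fed livers.

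The steps committed to sterols, from squalene onwards, carried most of the difference. Squalene epoxidase (SQLE, ENSDARG00000079946) had 2.96, 1.92 and 7.18 CPM in the NF-control livers, whereas OF-control females 4 and 6 had 0 counts and female 5 had 15 counts, or 1.5 CPM. Lanosterol synthase (LSS, ENSDARG00000061274), which closes the sterol rings, had 3.47, 1.49 and 8.71 CPM against 0.329, 0.4 and 0.764 CPM. For both genes every overfed liver lay below every normally fed liver, and the log2 fold changes were -3.07 (SE 1, unadjusted p = 0.00649) and -3.17 (SE 0.87, unadjusted p = 0.00154). With 15 counts in all in the overfed fish, the size for SQLE is not reliable, and it ranged from -9.57 to -1.46 over the alternatives. CYP51A1 (ENSDARG00000042641), the lanosterol demethylase, had 31.1, 22.6 and 51.8 CPM against 8.39, 17.1 and 16.6 CPM, with a log2 fold change of -1.32 (SE 0.38).

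The lowest unadjusted p of the pathway belonged to MSMO1 (ENSDARG00000055876), the methylsterol monooxygenase that removes methyl groups from the ring. It had 42.4, 14.2 and 49.5 CPM with normal feeding and 8.15, 9.50 and 8.49 CPM with overfeeding. The overfed fish lay close together, the groups did not overlap, and the log2 fold change was -2.02 (SE 0.40, unadjusted p = 6.09e-05, adjusted p = 0.53 in edgeR, 0.00242 in DESeq2). When NF-control female 2, the lowest of its group and so the nearest to the overfed fish, was left out, the adjusted p of MSMO1 in edgeR was 0.0388. It was not called with any other fish left out. This fish was singled out by its own value, so the smaller p is a description only. SC5D (ENSDARG00000044642), the sterol desaturase, had 5.51, 2.14 and 9.28 CPM against 1.32, 1.90 and 1.36 CPM (log2 fold change -1.89, SE 0.47, unadjusted p = 0.000691). NSDHL (ENSDARG00000099315) and HSD17B7 (ENSDARG00000088140), which act with MSMO1 on the same carbon, had log2 fold changes of -1.16 (SE 0.38) and -1.99 (SE 0.71). The isomerase EBP (ENSDARG00000046098) was at -1.73 (SE 0.69), and its groups overlapped.

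DHCR7 (ENSDARG00000103226), a reductase near the end of the pathway, had 17.7, 8.43 and 13.8 CPM against 6.75, 6.80 and 6.71 CPM. The overfed livers were all below the normally fed ones and close together, and the log2 fold change was -0.98 (SE 0.33, unadjusted p = 0.0072). One enzyme of the same stretch did not share this: TM7SF2 (ENSDARG00000032816), a sterol reductase, had 38.1, 72.3 and 53.9 CPM against 34.9, 69.7 and 31.5 CPM, with overlapping groups.

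Genes that regulate the pathway or take up cholesterol differed less clearly. The gene for SREBP2 itself (srebf2, ENSDARG00000063438) had a log2 fold change of -0.48 (SE 0.43). Its partner insig1 (ENSDARG00000010658), also a known SREBP2 target, had 17.9, 26.3 and 43.3 CPM against 6.99, 9.4 and 26.2 CPM with overlap (log2 fold change -1.03, SE 0.55). The low-density lipoprotein receptor gene ldlra (ENSDARG00000029476) had 27.1, 71.7 and 60.2 CPM against 36.9, 216 and 35.3 CPM. OF-control female 5 alone set its positive log2 fold change of 0.86 (SE 0.76), and without that fish the value was -0.54. TMEM97 (ENSDARG00000040553), a sterol-responsive membrane protein, had 26.0, 16.1 and 23.9 CPM against 12.3, 15.5 and 6.62 CPM without overlap. ABCA1 (ENSDARG00000074635), the exporter of cellular cholesterol, had 91, 201 and 126 CPM against 146, 277 and 116 CPM with overlapping groups (log2 fold change 0.37, SE 0.42). Its less abundant paralogue abca1b (ENSDARG00000079009) had 0.766, 0.961 and 2.3 CPM against 4.44, 4 and 4.92 CPM (log2 fold change 1.77, SE 1.04, unadjusted p = 0.105).

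In the other contrasts the sterol genes were also more often lower than higher. In trained females 19 were lower and 10 higher, and in males 17 were lower and 12 higher. The median log2 fold change of the 29 genes was -0.312 in trained females and -0.35 in males. At an unadjusted p under 0.05, 4 and 7 of the 29 were lower (against 6.9% and 6.63% of all genes). At that threshold 3 and 2 of the 29 were higher (against 3.3% and 5.01% of all genes). For MSMO1 the log2 fold changes were -1.4 and -1, for SC5D -0.94 and -0.71, and for LSS -1.36 and -1.30. Without NF-training female 3, 20 of the 29 genes were lower and 9 higher in trained females, with a median of -0.424. At an unadjusted p under 0.05, 4 were then lower and 0 higher, against 326 lower and 372 higher of all 17411 genes. LSS and SQLE were near the detection limit in all males, at no more than 0.957 and 0.269 CPM in any untrained male. The effect of overfeeding differed between females and males at an unadjusted p under 0.05 in 5 of the 29 genes (17.2%, against 5.51% of all genes), 4 of them lower in females. Between untrained and trained females it differed in 1 (3.45%, against 4.46% of all genes). None passed adjustment, and a difference particular to untrained females was not shown for this pathway.

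**Figure D3:**
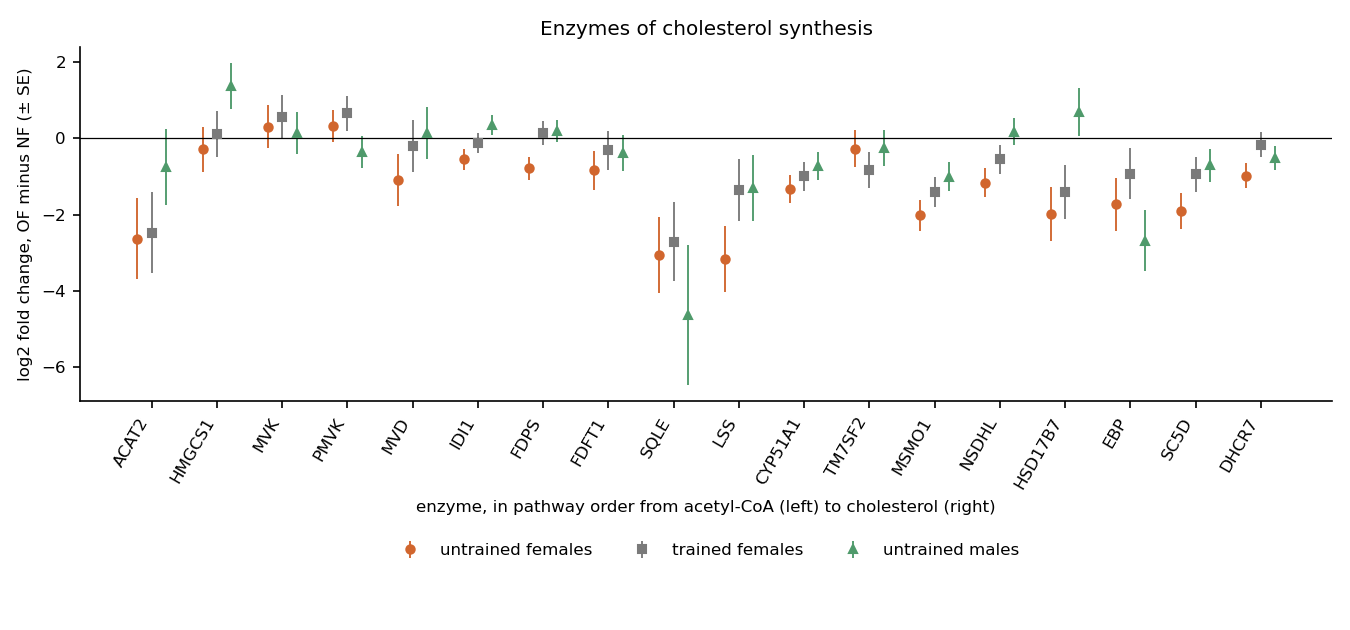
Log2 fold change (OF minus NF, with its standard error as a bar) of 18 enzymes of cholesterol synthesis in pathway order, for untrained females (circles), trained females (squares) and untrained males (triangles), each 3 against 3 fish. In untrained females the enzymes from SQLE to DHCR7 lie below 0 throughout, with TM7SF2 closest to 0.

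Enzymes of amino acid breakdown formed a further group that was lower in overfed untrained females. The list of these genes was made after their values were seen, so its counts describe these fish only. Of 79 tested genes, 63 were lower and 16 higher, and 19 (24.1%, against 2.8% of all genes) were lower at an unadjusted p under 0.05 with none higher. In 15 (19%, against 4.69% of all genes) the OF-control livers were all below the NF-control livers, and the median of the list was -0.32 on the log2 scale. The count changed with single fish, as did that of all genes. It was 7 with a median of -0.187 without NF-control female 1 and 8 without OF-control female 5. It was 12 without OF-control female 6, 26 without OF-control female 4 and 13 without NF-control female 3. Of all 17411 genes, 488 were lower at that threshold with all fish. The number was 265 without NF-control female 1, 310 without OF-control female 5 and 439 without OF-control female 6. It was 764 without OF-control female 4 and 411 without NF-control female 3.

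Enzymes of the arginine and proline route stood out. Ornithine aminotransferase (OAT, ENSDARG00000078425), which turns ornithine into a precursor of glutamate and proline, had 115, 111 and 161 CPM in NF-control and 52.1, 54.6 and 57.0 CPM in OF-control livers. Mitochondrial arginase (ARG2, ENSDARG00000039269), which makes ornithine from arginine, had 79.1, 71.3 and 76.5 CPM against 25.1, 21.5 and 24.7 CPM. In both genes the fish within a group differed little and the groups were far apart, with log2 fold changes of -1.24 (SE 0.33, unadjusted p = 0.00114) and -1.67 (SE 0.54, unadjusted p = 0.00576). The SE of ARG2 comes from the spread of all 24 fish, and the NF-control males alone ranged from 46.7 to 321 CPM. Proline dehydrogenase (prodha, ENSDARG00000086746), which starts proline oxidation, had 40.7, 25.0 and 40.8 CPM against 15.6, 6.20 and 7.64 CPM (log2 fold change -1.85, SE 0.49, unadjusted p = 0.00115).

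Other routes were lower too. In glycine breakdown, the glycine decarboxylase GLDC (ENSDARG00000035120) had 52.5, 73.2 and 59.3 CPM against 28.8, 35.3 and 26.9 CPM. In tyrosine breakdown, TAT (ENSDARG00000069630), the aminotransferase of the first step, had 1162, 1816 and 1443 CPM against 535, 631 and 1122 CPM, and FAH (ENSDARG00000101762), the hydrolase of the last step, had 124, 92.4 and 118 CPM against 64.8, 46.9 and 54.3 CPM. For GLDC, TAT and FAH the overfed fish were all below the normally fed fish, with log2 fold changes of -1.02 (SE 0.38), -0.95 (SE 0.50) and -1.01 (SE 0.30). In the conversion of homocysteine to cysteine, cbsb (ENSDARG00000010946) had 59.06, 42.2 and 59.9 CPM against 35.5, 17 and 23.2 CPM and CTH (ENSDARG00000074301) had 27.1, 16 and 25.3 CPM against 15.6, 6.10 and 13.5 CPM. AASS (ENSDARG00000051816), which begins lysine breakdown, and UROC1 (ENSDARG00000070394), of histidine breakdown, were at -0.74 (SE 0.30) and -0.63 (SE 0.26), both without overlap.

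Some members overlapped between the groups in spite of an unadjusted p under 0.05. GOT2 (ENSDARG00000041068), the mitochondrial aspartate aminotransferase, had 167, 63.1 and 117 CPM against 85.0, 47.1 and 58.7 CPM, so that NF-control female 2 lay within the overfed range. GNMT (ENSDARG00000006840), which uses up surplus S-adenosylmethionine, had 101, 60.9 and 82.4 CPM against 66.0, 29.6 and 37.8 CPM. The largest differences in each direction were those of 2 genes listed under one symbol, GLS2, for liver glutaminase. One (ENSDARG00000069095) had a log2 fold change of -1.98 (SE 0.84) and the other (ENSDARG00000002917) 1.06 (SE 1.15), and reads shared by such copies may have been divided between them.

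In trained females 55 of the 79 genes were higher and 24 lower with overfeeding (median 0.152), and in males 48 were higher and 31 lower (median 0.0872). OAT, at -1.24 in untrained females, had log2 fold changes of 0.62 in trained females and 0.10 in males, and prodha, at -1.85, had -0.44 and 0.94. Other members were lower in males too. ARG2 had log2 fold changes of 0.55 in trained females and -2.63 in males, and TAT had 0.21 and -2.62, with no overlap between the male groups in either gene. The interaction between untrained and trained females had an unadjusted p under 0.05 in 15 of 79 genes (19%, with 4.46% of all genes), and all 15 were lower in untrained females. Between females and males there were 14 (17.7%, with 5.51% of all genes), of which 13 were lower in females. The list was chosen on the untrained females that enter these interactions, so their number and direction are a description only. No single interaction passed adjustment in edgeR. For OAT the interaction with training was -1.86 (unadjusted p = 0.000634), and for prodha the interaction with sex was -2.79 (unadjusted p = 0.000534), which DESeq2 gave an adjusted p of 0.0352. NF-training female 3 stood apart in vitellogenin and in detected genes, and without it the trained females had 40 genes higher and 39 lower, with a median of 0.0121. OAT was low in the NF-training females, at 32.3 to 56.6 CPM, below all 3 NF-control females, and the OF-training females had 54.6 to 90.9 CPM.

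**Figure D4:**
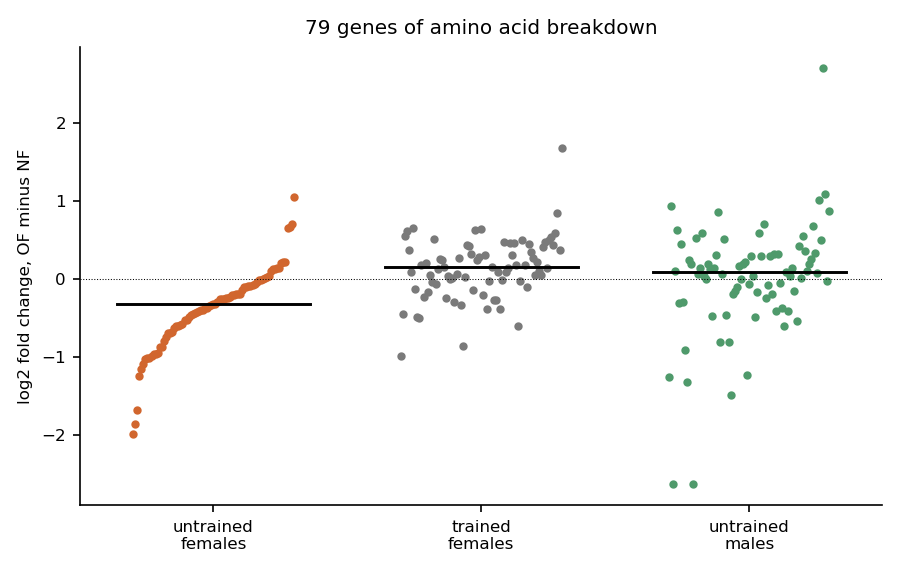
Log2 fold change (OF minus NF) of 79 genes of amino acid breakdown in untrained females, trained females and untrained males, with the genes of each column in the order of their value in untrained females and the median as a bar. In untrained females 63 genes lie below 0, with a median of -0.32, against medians of 0.152 in trained females and 0.0872 in males.

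Several genes of the circadian clock, which in zebrafish is set directly by light and by feeding, were lower. PER2 (ENSDARG00000034503), a light-induced repressor of the clock, had 19.3, 16.4 and 37.4 CPM in NF-control and 11.4, 5.80 and 11.8 CPM in OF-control livers (log2 fold change -1.33, SE 0.37, unadjusted p = 0.00173). The photolyase-related gene cry5 (ENSDARG00000019498) had 8.88, 7.26 and 12.4 CPM against 4.53, 3.60 and 5.52 CPM, and CRY1 (ENSDARG00000045768), a further repressor, had 36.2, 32.7 and 35.5 CPM against 25.0, 24.8 and 27.2 CPM. In these 3 genes the groups did not overlap. A second gene listed as CRY1 (ENSDARG00000011583) had 8.58, 12.6 and 8.80 CPM against 11.9, 22.1 and 3.65 CPM. Its groups overlapped, and its mean was higher with overfeeding. The output factor tefa (ENSDARG00000039117) had a log2 fold change of -1.25 (SE 0.40) with overlapping groups. Over 37 tested clock genes, 14 were higher and 23 lower, with 1 higher (2.7%, against 1.97% of all genes) and 5 lower (13.5%, against 2.8%) at an unadjusted p under 0.05. In males PER2 was at -0.80 and the first CRY1 gene at -0.46, and in trained females at -0.64 and 0.06 (-0.14 and -0.09 without NF-training female 3). The hour at which each liver was taken is not given, and its part in these values was not tested.

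The genes of protein synthesis showed small differences in one direction. Of 80 genes for cytosolic ribosomal proteins, 79 were higher and 1 lower with overfeeding, at a median of 0.215 on the log2 scale, but none had an unadjusted p under 0.05. RPL38 (ENSDARG00000006413), for example, had 99.6, 127 and 108 CPM against 133, 166 and 144 CPM without overlap (log2 fold change 0.40, SE 0.25). The median was 0.335 in trained females (0.0536 without NF-training female 3) and 0.0244 in males. Without NF-control female 1 the median in untrained females was 0.104, and with scaling by library size alone, which moved the median of all genes to -0.184, it was 0.0964 with 74 genes higher. Of 75 mitochondrial ribosomal protein genes, 59 were higher (median 0.108). Only mrpl58 (ENSDARG00000078835) had an unadjusted p under 0.05 (1.33%, against 1.97% of all genes higher), with 1.63, 2.03 and 2.2 CPM against 2.3, 3.30 and 3.06 CPM.

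Subunits of oxidative phosphorylation (OXPHOS), the chain that makes ATP in mitochondria, were divided, with 40 of 91 genes higher and 51 lower. In 13 genes the groups did not overlap with the overfed fish lower and in 3 with them higher (14.3% and 3.3%, against 4.69% and 3.84% of all genes), and 3 (3.3%, against 2.8%) were lower at an unadjusted p under 0.05. The ATP synthase subunit atp5mc1 (ENSDARG00000056008) had 77.9, 68.7 and 99.2 CPM against 39.3, 51.9 and 53.1 CPM, a log2 fold change of -0.77 (SE 0.24, unadjusted p = 0.0041). The complex I subunit ndufc1 (ENSDARG00000103101) had 3.52, 3.42 and 3.83 CPM against 2.06, 2.3 and 2.29 CPM (log2 fold change -0.69, SE 0.21). In males most of these genes were higher with overfeeding, with 84 of the 91 higher and 7 lower (median 0.486, against -0.0364 in untrained females). At an unadjusted p under 0.05, 56 of the 91 were higher in males (against 5.01% of all genes) and 2 of the 91 lower (against 6.63% of all genes). In trained females 68 were higher and 23 lower (median 0.123, or 0.0452 without NF-training female 3). For atp5mc1 the log2 fold change in males was 0.86, with NF-control males at 54.8 to 59.7 CPM against OF-control males at 84.6 to 118 CPM. The interaction between the sexes had an unadjusted p under 0.05 in 27 of the 91 genes (29.7%, against 5.51% of all genes), each lower in females. For atp5mc1 it was -1.63 (unadjusted p = 9.48e-05, adjusted p = 0.694 in edgeR and 0.0079 in DESeq2).

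**Figure D5:**
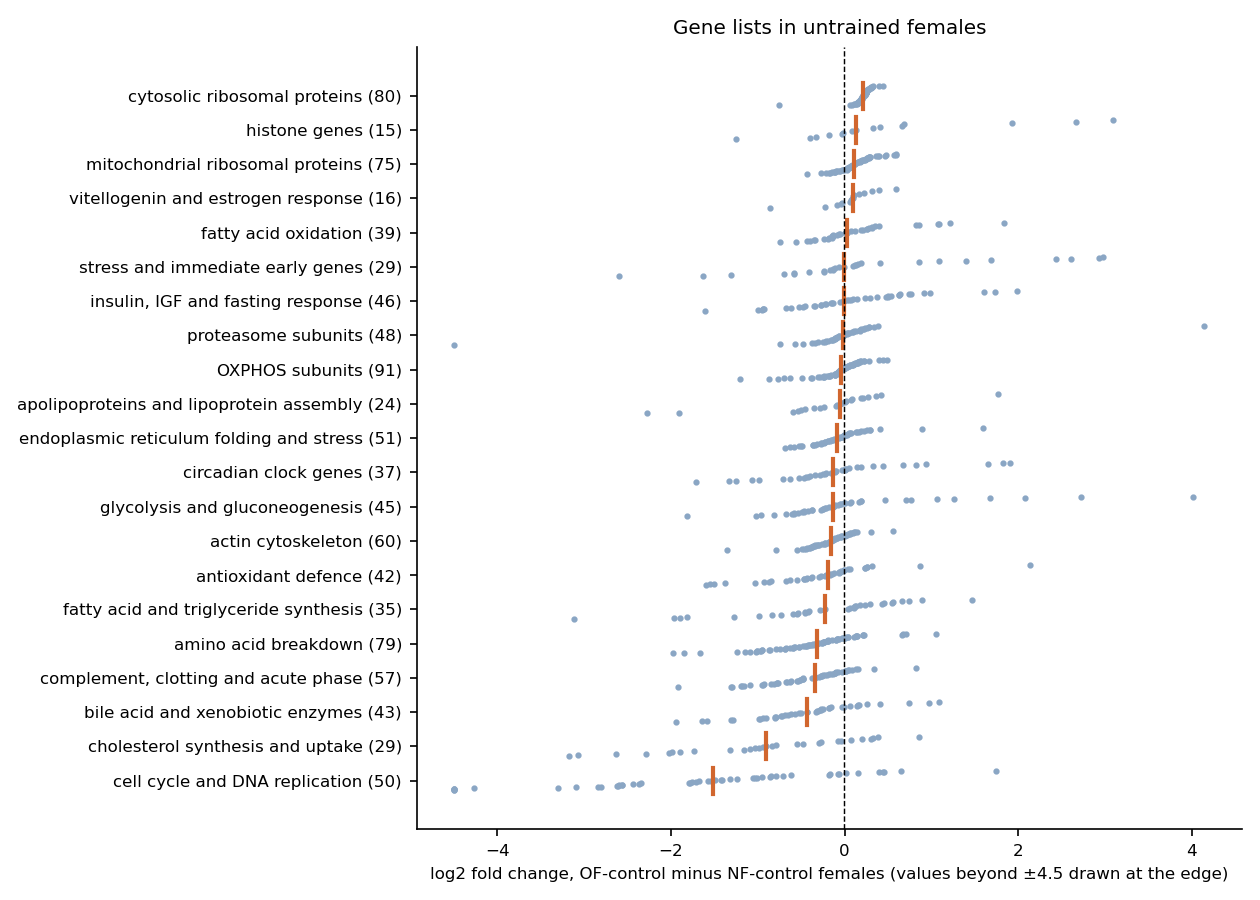
Log2 fold change (OF-control minus NF-control females) of the tested genes of 21 lists, 1 point per gene, with the median of each list as an orange bar, the median of all genes as a dashed line and the number of genes in brackets. The lists for cell cycle and for cholesterol have the lowest medians, -1.52 and -0.905, and the ribosomal proteins form a narrow group at 0.215.

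Genes of secreted liver proteins and detoxification mostly had values below 0, with few past the unadjusted threshold. Of 57 genes of complement, clotting and the acute phase, 47 were lower (median -0.341), and 1 (1.75%, against 2.8% of all genes) had an unadjusted p under 0.05: c5 (ENSDARG00000021004), which starts the terminal complement pathway, had 665, 410 and 603 CPM against 383, 381 and 192 CPM without overlap. The complement regulator cfh (ENSDARG00000100442) had 669, 232 and 364 CPM against 291, 195 and 107 CPM. Of 43 bile acid and xenobiotic enzymes, 34 were lower (median -0.429), with 1 higher (2.33%, against 1.97% of all genes) and 2 lower (4.65%, against 2.8%) at the unadjusted threshold. In both lists NF-control female 1 had the highest mean log2 CPM of the 6 fish and OF-control female 6 the lowest. The cytochrome cyp2ad3 (ENSDARG00000022650) had 52.3, 32.1 and 49.3 CPM against 39.4, 10.2 and 5.26 CPM, and cyp3c2 (ENSDARG00000037874) had 0.766, 1.71 and 0.765 CPM against 2.63, 2.5 and 1.61 CPM. OF-control female 4 lay within the normally fed range for cyp2ad3. Without that fish the adjusted p of cyp2ad3 was 0.0198 in edgeR, but the gene was not called with all fish or with any other fish left out. The fish was singled out by its own value, so this p is a description only. Of 42 antioxidant genes 33 were lower (median -0.191), with 1 higher (2.38%, against 1.97% of all genes) and 4 lower (9.52%, against 2.8%) at the unadjusted threshold. Among them were NQO1 (ENSDARG00000010250), a quinone reductase and known target of the factor NRF2, with 27.3, 3.2 and 12.5 CPM against 4.85, 5.3 and 4.16 CPM, and SOD3 (ENSDARG00000070168), the extracellular superoxide dismutase, with 57.1, 9.29 and 25.0 CPM against 20.7, 5.3 and 9.25 CPM. In both, the groups overlapped through NF-control female 2.

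The estrogen response did not differ between the groups beyond their spread. Of 16 tested genes of vitellogenin and the estrogen response, 11 were higher and 5 lower (median 0.0931), with none higher at an unadjusted p under 0.05. The estrogen receptor ESR1 (ENSDARG00000004111) had 153, 363 and 342 CPM against 248, 570 and 480 CPM, lowest in NF-control female 1, the fish with the least vitellogenin. The log2 fold change was 0.60 (SE 0.43). The only member at the unadjusted threshold (6.25%, against 2.8% of all genes lower) was shbg (ENSDARG00000019492), the sex hormone-binding globulin, with 461, 178 and 310 CPM against 209, 209 and 104 CPM (unadjusted p = 0.0493).

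The list with the lowest median in untrained females, that of the cell cycle and DNA replication, rested there on 1 fish. Of 50 tested genes 43 were lower and 7 higher (median -1.52). At an unadjusted p under 0.05, 11 were lower (22%, against 2.8% of all genes) and 1 higher (2%, against 1.97%). STMN1 (ENSDARG00000004169), which regulates microtubules in dividing cells, had 47 counts in NF-control female 1, 1 count in each of NF-control females 2 and 3, and 0 counts in all OF-control females. Without NF-control female 1 the median was -0.0618, and no gene was at the unadjusted threshold in either direction. Of all 17411 genes, 477 were then higher and 265 lower at that threshold. This fish also had the lowest vitellogenin share of the 6, and the part of that in the list was not tested. The member higher at that threshold was KIF23 (ENSDARG00000014943), a motor protein of cell division, with 0.51, 2.56 and 1.53 CPM against 1.97, 3.70 and 9.17 CPM. In males 42 of the 50 genes were lower and 8 higher with overfeeding (median -1.11). At the unadjusted threshold 13 of the 50 were lower in males (against 6.63% of all genes) and 0 higher (against 5.01% of all genes). In trained females the median was -1.09, and without NF-training female 3 it was 0.793. In bulk liver, fewer dividing cells and less RNA per cell cannot be told apart. The same holds for all other genes and cell types here.

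Stress and immediate early genes were uneven within the overfed group. The early growth response gene egr1 (ENSDARG00000037421) had 1.43, 2.24 and 0.861 CPM against 1.4, 31.6 and 2.63 CPM, and GADD45B (ENSDARG00000027744), a stress-induced gene, had 4.29, 19.4 and 12.06 CPM against 7.41, 151 and 33.9 CPM. OF-control female 5 was far above the other 5 fish in both. Of 2 genes listed as SOCS3, a feedback inhibitor of cytokine signalling, one (ENSDARG00000026611) had 23.2, 6.30 and 16.6 CPM against 9.71, 4.2 and 4.75 CPM with overlapping groups (log2 fold change -1.31, SE 0.52). The other (ENSDARG00000025428) had 2, 8 and 6 counts against 5, 48 and 64 counts, also with overlap and in the opposite direction (log2 fold change 2.94, SE 1.48, unadjusted p = 0.0605). Of 29 tested genes 14 were higher and 15 lower. The transcription factor foxo3a (ENSDARG00000023058), which insulin signalling keeps out of the nucleus, had 9.09, 3.42 and 8.61 CPM against 3.87, 0.8 and 2.21 CPM (log2 fold change -1.61, SE 0.46, unadjusted p = 0.00228). It was the only gene of the 46 tested in insulin, IGF and fasting responses at an unadjusted p under 0.05 (2.17%, against 2.8% of all genes lower). Of these 46 genes, 22 were higher and 24 lower. The folding enzymes PDIA6 (ENSDARG00000009001) and calr3a (ENSDARG00000103979) of the endoplasmic reticulum differed in opposite directions (log2 fold changes 0.90 and -0.52), and 18 of 51 genes of that list were higher and 33 lower. The proteasome subunit PSMA1 (ENSDARG00000101560) had 21.2, 22.5 and 19 CPM against 25.1, 28.2 and 28.4 CPM, while 22 of 48 proteasome genes were higher and 26 lower. Apolipoproteins (9 of 24 higher) and actin cytoskeleton genes (15 of 60 higher, median -0.155) had no member at an unadjusted p under 0.05 in either direction.

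Further genes with the smallest p-values belonged to no list. Among the higher ones, mtcl3a (ENSDARG00000088571), related to microtubule-binding proteins, had 0.919, 0.854 and 0.861 CPM against 4.2, 2.80 and 2.97 CPM. The Notch target HEY1 (ENSDARG00000070538) had 0.715, 0.534 and 0.383 CPM against 1.4, 1.80 and 1.87 CPM, and the exocyst subunit EXOC5 (ENSDARG00000060323) had 2.04, 2.78 and 2.68 CPM against 6.66, 4.70 and 3.57 CPM. PAOX (ENSDARG00000003380), which oxidises polyamines, was set by OF-control female 6, with 7.98 CPM there and 1.07 and 1.1 CPM in the other two overfed fish. GFRA2 (ENSDARG00000042723), a receptor for neurturin, had 2, 1 and 1 counts against 7, 11 and 14 counts, and gdpd4b (ENSDARG00000079293) had 2, 0 and 0 counts against 6, 4 and 6, both too few for a reliable fold. The uncharacterised genes zgc:194312 (ENSDARG00000077414) and si:ch1073-84g19.1 (ENSDARG00000097674) had log2 fold changes of 1.64 (SE 0.41) and 2.01 (SE 0.53).

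Among the lower ones, GRK1 (ENSDARG00000058803), the kinase of rhodopsin in the retina, had 9.04, 15.2 and 15.8 CPM against 4.28, 1.4 and 1.78 CPM, a log2 fold change of -2.40 (SE 0.57, unadjusted p = 0.000421). It was called by DESeq2 (adjusted p = 0.0243), as was the uncharacterised zgc:136493 (ENSDARG00000029259), with 15.7, 12 and 16.1 CPM against 6.50, 8.60 and 7.81 CPM (adjusted p = 0.034 in DESeq2). For both the groups did not overlap. The gene sec14l7 (ENSDARG00000099633), of a family of lipid-binding proteins, had 144, 51.5 and 91.8 CPM against 41.7, 10.5 and 3.65 CPM (log2 fold change -2.36, SE 0.63). The keratin krt15 (ENSDARG00000036840) had 8.22, 7.15 and 6.32 CPM against 4.85, 3.70 and 2.29 CPM, and MRTFA (ENSDARG00000075867), a coactivator that responds to actin, had 1.02, 1.28 and 2.2 CPM against 0.329, 0.6 and 0.34 CPM. The myelin protein gene pmp22a (ENSDARG00000105223) was lower to a similar degree in trained females, with log2 fold changes of -2.16 and -2.31.

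Some lower genes had few or no counts in the overfed fish. The gene lratb.1 (ENSDARG00000096594), of the lecithin retinol acyltransferase family that stores vitamin A as an ester, had 14, 3 and 3 counts in NF-control females and 0 in all OF-control females. The proteoglycan gene spock2 (ENSDARG00000075393) had 112, 6 and 19 counts against 0, 1 and 0, and the glucuronosyltransferase ugt5a1 (ENSDARG00000016479) had 30, 12 and 5 counts against 0, 1 and 2. DESeq2 also called nlrc3l2 (ENSDARG00000089304), with 2, 13 and 32 counts against 0 in all overfed fish (adjusted p = 2.36e-05 in DESeq2), which edgeR gave an unadjusted p of 0.159. Counts so low give no reliable size of these differences. Related lecithin retinol acyltransferases mark stellate cells. The summed markers of these cells had 41.2 to 68.5 TPM in NF-control and 39 to 42.6 TPM in OF-control livers. The 68.5 TPM was in NF-control female 1, and TPM is not scaled for the lower vitellogenin share of that fish. The part of these cells in the value of lratb.1 was not tested. The uncharacterised zgc:194242 (ENSDARG00000079532) and si:ch211-225b11.1 (ENSDARG00000002405) had log2 fold changes of -1.23 (SE 0.32) and -1.31 (SE 0.34), without overlap.

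Summed markers of other cells did not separate the groups. Summed TPM overlapped between NF-control and OF-control livers for hepatocytes (49100 to 135000 against 55800 to 85700), exocrine pancreas (608 to 874 against 374 to 800), erythrocytes (123 to 240 against 119 to 230), leukocytes (4630 to 16500 against 4390 to 11400), endothelium (26.7 to 55.4 against 27.7 to 38.1), stellate cells and fibroblasts (41.2 to 68.5 against 39 to 42.6), bile ducts (354 to 642 against 368 to 477) and gut epithelium (190 to 448 against 137 to 582). The leukocyte sum was mostly the apolipoprotein gene apoc1, with 4498.9 to 16199 TPM in NF-control and 4201.8 to 11216 TPM in OF-control livers. The gut sum was mostly the apolipoprotein gene apoa4b.1, with 181.41 to 429.46 against 131.86 to 573.07 TPM. Both sums therefore say little about leukocytes or gut cells. NF-control female 1 had the highest sum of its group in each marker list of this paragraph. Unlike the CPM, TPM is not scaled for vitellogenin, and a lower vitellogenin share raises the TPM of all other genes. Vitellogenin took 18.2% of TPM in that fish, 42.3% and 40.1% in NF-control females 2 and 3, and 31.3%, 37.6% and 38.1% in OF-control females 4, 5 and 6. The part of this in the sums and their ranges was not tested. Gene by gene, 22 of 26 tested exocrine pancreas markers were higher and 4 lower (median 0.851), with 6 higher (23.1%, against 3.84% of all genes) and 2 lower without overlap. Of 16 tested gut epithelium markers 14 were lower and 2 higher (median -0.881), with 2 lower without overlap (12.5%, against 4.69% of all genes). The part of these cells in the other results was not tested.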

How the data were processed

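RNA from 24 whole zebrafish livers was sequenced on a BGISEQ-500. Per the labels and the study's methods, the authors removed low-quality reads (Trim Galore 0.6.4) and counted the rest with kallisto (version 0.4.6 in the submitters' processing notes) on GRCz11. The step from transcripts to genes is not given in the sources used here. The authors deposited unscaled estimated counts and TPM for each gene, the latter scaled for length and to a fixed sum per fish. Of the estimated counts above 0, 51.9% were whole. Depth was 19315642 to 21399321 counts per fish, but counts outside vitellogenin were 4950351 to 11175803 in the 6 females, which limits the precision for low genes. No pair of fish had identical values. Symbols were found for 29201 of 32520 Ensembl identifiers.

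Counts were rounded, filtered with filterByExpr (minimum count 10, 17411 genes), scaled with TMM and fitted with edgeR 4.0.16 (R 4.3.3) in 8 cells of feeding, training and sex over 24 fish, with 16 residual degrees of freedom. Contrasts used the quasi-likelihood test with Benjamini-Hochberg adjustment at 0.05. The SE is the log2 fold change divided by the square root of F. CPM uses TMM-scaled library sizes, so that the CPM of a fish do not sum to 1000000. The steps were tested on simulated data.

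Named genes were the 12 in each direction with the smallest unadjusted p among those with a symbol and no overlap, the 5 in each direction with the largest fold at p under 0.01 and a mean of 5 CPM, and of each list the 3 most expressed and the 2 with the smallest p. Not all of these are reported here, and the remaining genes named were chosen after their values were seen, most of them from the lists for cholesterol and amino acids. The members, the 19 gene lists, the 9 marker lists and 2 further lists (histones, amino acid breakdown) were chosen with earlier results of these data known. Lists are described by counts and medians. Alternatives were the 12 or 6 females alone, DESeq2 1.42.0, limma 3.58.1 (voom, and TPM with pseudocounts of 1 and 0.1) and other scalings and filters. Further alternatives were the vitellogenin share as a covariate, an offset that removed the trend of each fish with gene length, and each fish left out. The vitellogenin share was compared with an exact permutation test. Blood glucose, muscle data and the other comparisons of the study were not analysed here.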

Additional observations from a re-analysis of the deposited data

How the results depend on the processing

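The count of 0 genes called between OF-control and NF-control females held under limma voom, the other scalings and filters, TPM and the 12 females alone. It also held with the vitellogenin share as a covariate and with the gene length trend removed. DESeq2 called 9 genes here and 18 in the interaction of feeding with sex, and a fit to the 6 females alone called 1, ddx43, named after its value was seen (adjusted p = 0.0484 in edgeR). With each fish left out the count was 0 to 1. At an unadjusted p under 0.05, the 831 genes became 444 with the 12 females alone, 464 with the 6 females alone, and 614 to 1339 with each fish left out, the lowest without OF-control female 5 and the highest without NF-control female 2. Fits to fewer fish also tested fewer genes (13880 and 12611). The split of 343 higher and 488 lower became 110 and 452 with library size alone, 419 and 408 with the vitellogenin share as a covariate, and 477 and 265 without NF-control female 1. The cause was not tested. The vitellogenin difference ranged from -4.32 to 10 percentage points with each fish left out. With each fish left out, the log2 fold change ranged from -0.977 to 0.0534 for HMGCS1 (highest without OF-control female 4), from -0.0745 to 0.731 for ABCA1 (lowest without OF-control female 5) and from -0.536 to 1.27 for ldlra (likewise), and none of the other genes given with a log2 fold change in untrained females changed direction in the alternatives run. No paired analysis was possible, because the groups are different fish and the labels give no pairing between them. The numbers 1 to 3 of the NF-control females and 4 to 6 of the OF-control females only number the fish within a group. Depth limits the genes under about 1 CPM, which had few counts in the females.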
